A study of Gallus gallus with 13 samples.

Results

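Local timing valleys in mid S phase are stretches of chromosome 1 that replicated later than the DNA directly to their left and to their right, but earlier than the latest-replicating parts of the chromosome. They were called in wild-type (Wt) DT40 cells, a chicken cell line from a bursal lymphoma, from the signal of 4 S-phase fractions that ran from S1 (earliest) to S4 (latest). Chromosome 1 was tiled into 20 kb windows, and each window was assigned to the fraction with the highest scaled signal, its leading fraction. Consecutive windows with the same leading fraction formed a run. A valley is a run led by S2 or S3 whose neighbouring runs on both sides were led by an earlier fraction. This gave 79 valleys with 931 windows, out of 9787 windows in 784 runs that had a leading fraction. The valleys thus held 9.51% of the windows, and 26.8% of the 3477 windows led by S2 or S3.

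The lines compared were Wt and a clone of DT40 that is labelled 2x (betaA-globin+ beta-actin). The clone is homozygous for an insertion of cis-regulatory elements at a mid-late replicating place of chromosome 1. Both lines were growing exponentially, received a BrdU pulse of 1 h and were sorted by flow cytometry, after which labelled nascent strands were immunoprecipitated, amplified by whole-genome amplification and sequenced (Repli-seq). Each fraction of each line was 1 library, 8 libraries in all, and the modified line was 1 clone, so that the effect of the insertion, clonal differences and differences between library preparations cannot be told apart. With 1 library per fraction and line there is no replicate error, and no test or p-value is given. The valleys were chosen by the Wt signal of the 4 fractions, so Wt values are a description, and the clone's libraries are the only values that the choice did not use. The deposited scores hold no counts, so the depth is unknown.

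Replication of a vertebrate chromosome starts at many origins that fire at characteristic times, and forks move outward from them until they meet forks from the neighbouring origins. Replication timing profiles therefore show early peaks where origins fire, slopes where forks travel, and valleys where converging forks meet or where origins fire late. Early replication goes with open, gene-rich and transcribed chromatin, and late replication with compact chromatin.

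Of the 79 valleys, 36 were led by S2 (372 windows) and 43 by S3 (559 windows). S2-led valleys held 21.3% of the 1746 windows led by S2, and S3-led valleys held 32.3% of the 1731 windows led by S3. The other runs led by these fractions were 310 transitions between an earlier and a later run, with 2162 windows, and 56 local peaks between later runs, with 374 windows. All 36 S2-led valleys lay between runs led by S1, as the definition requires, since only S1 is earlier than S2. Of the 43 S3-led valleys, 42 lay between runs led by S2, and 1 had S1 on the left and S2 on the right. One step further out, 58 of the 86 runs beyond the flanks of S3-led valleys were led by S1. Both of these outer runs were led by S1 at 19 of the S3-led valleys, 1 of them at 20, and neither at 4. The 19 valleys of the first kind were the middle of a symmetrical series of fractions, from S1 through S2 to S3 and back.

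The valleys lay along the whole chromosome at uneven spacing. The distance between the centres of neighbouring valleys ranged from 100 to 11660 kb, with a median of 1330 kb. In bins of 20 Mb, the share of windows in valleys was highest between 60 and 80 Mb, where 159 of 980 windows (16.2%) were members. It was lowest between 140 and 160 Mb, where 3 valleys held 21 windows (2.1%). A flanking run was shared with another valley at 32 of the 79, so neighbouring valleys are not independent of each other.

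Valleys ranged from 20 to 940 kb in length, with a median of 180 kb. The median was 160 kb for S2-led valleys, whose longest reached 540 kb, and 220 kb for S3-led valleys, whose longest reached 940 kb. Transitions led by the same fractions had a median of 120 kb and local peaks a median of 80 kb. A length of 200 kb or more was found in 39 valleys, and 400 kb or more in 12, of which 4 were led by S2 and 8 by S3. At the other end, 11 valleys were 40 kb or shorter, and 6 of these were a single window.

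**Figure D1:**
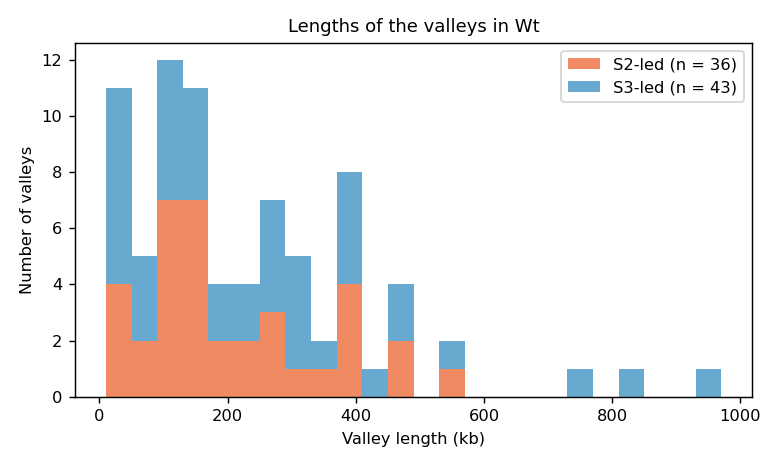
Number of S2-led and S3-led valleys in Wt by length, in kb. Transitions and local peaks led by the same fractions are not drawn. The median was 180 kb for valleys, 120 kb for transitions and 80 kb for local peaks, and the longest valley reached 940 kb.

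The windows at the edge of the definition show how small a margin can decide membership. The smallest lead inside a valley was at chr1:51620001-51640000, where S2 took 39.29% of the summed scaled signal of the 4 fractions and S1 39.28%. The single-window valley at chr1:48160001-48180000 was S3-led with 43.2% in S3 and 43.2% in S2, a lead of 0.0493 percentage points. Just outside, the window at chr1:106860001-106880000 was led by S2 with 35.5% against 35.4% in S3. Across all valley windows the median lead was 11.8 percentage points in S2-led and 11.2 in S3-led valleys, against 20.2 over all windows. The leading fraction of a valley thus typically shared the locus with another fraction that was not far behind.

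That other fraction was mostly the next earlier one, which the definition favours, since both neighbouring runs are led by an earlier fraction. In S2-led valleys the runner-up was S1 in 236 windows (63.4%), S3 in 132 (35.5%) and S4 in 4. In S3-led valleys it was S2 in 390 windows (69.8%), S4 in 164 (29.3%) and S1 in 5. In transitions S1 was the runner-up in 42.2% of the S2-led windows, and S2 in 48.6% of the S3-led windows. In Wt the S2-led valleys had median shares of the signal of 32.7% (S1), 44.9% (S2), 17.6% (S3) and 5.10% (S4). In the clone the same valleys had medians of 32.3%, 44.7%, 20.0% and 4.87%. The S3-led valleys had medians of 9.35%, 30.4%, 43.2% and 15.8% from S1 to S4 in Wt, and of 8.94%, 28.8%, 43.2% and 17.8% in the clone. Replication within a valley was thus spread over neighbouring fractions in both lines, and the largest difference between these medians of the lines was that of S3 in S2-led valleys.

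On the deposited scale, in SD units around the chromosome mean of each fraction, the same order was seen without any rescaling. S2-led valleys had median scores from S1 to S4 of 0.566, 1.38, -0.118 and -0.983 in Wt. The clone's medians there were 0.438, 1.20, -0.0663 and -1.02. In S3-led valleys the medians in Wt were -0.490, 0.562, 1.26 and -0.281, and those in the clone were -0.471, 0.372, 1.21 and -0.149. The S2 score was the lower in the clone in both kinds of valley. The S2 share of the signal was lower in the clone in 53 of the 79 valleys (67.1%), where 49.7% of all 784 runs had a lower S2 share. It was lower in 26 of the 36 S2-led valleys (72.2%), which were chosen for S2 being highest in Wt. Of the 43 S3-led valleys it was lower in 27 (62.8%). The shares of S1, S3 and S4 were lower in the clone in 40, 32 and 39 valleys, against 55.6%, 44.4% and 51.1% of all runs. The 2 kinds of valley differed in this. S4 was lower in 25 of the 36 S2-led valleys (69.4%) and in 14 of the 43 S3-led ones (32.6%). S3 was lower in 10 (27.8%) and 22 (51.2%), and S1 in 17 (47.2%) and 23 (53.5%).

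**Figure D2:**
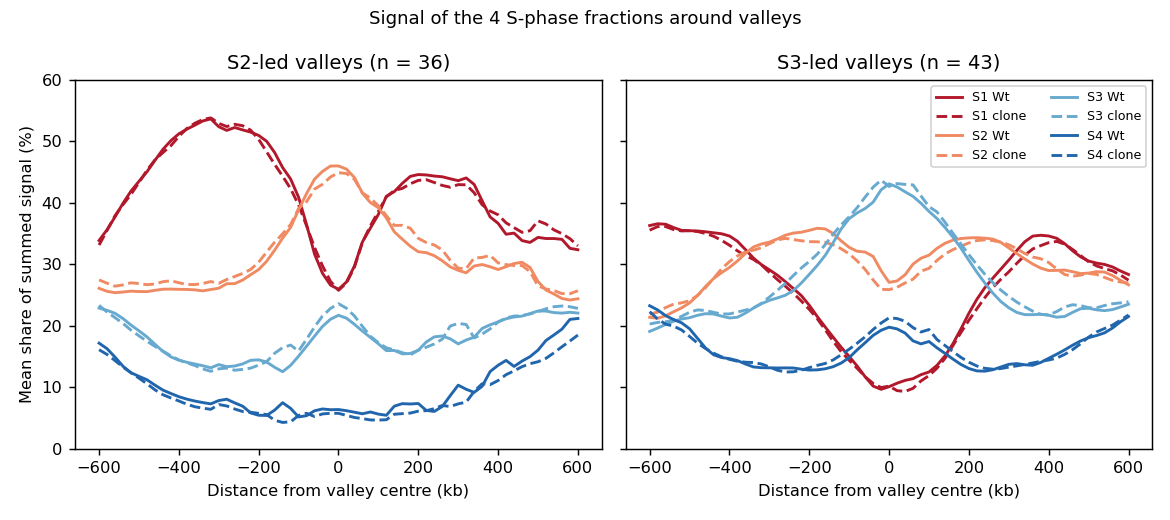
Mean share of the summed signal in each fraction, in percent, against the distance from the valley centre in kb, for S2-led valleys (n = 36) and S3-led valleys (n = 43) in Wt and the clone. At the centre of S3-led valleys S3 had a mean of 43.1% in Wt and 42.7% in the clone, and 200 kb to the left 28.4% and 30.5%.

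A timing index summarised the 4 fractions of a window, weighted 4, 3, 2 and 1 from S1 to S4, so that it runs from 1, with S4 alone, to 4, with S1 alone. The S2-led valleys had a median index of 3.01 in Wt (2.67 to 3.26), and their flanks, up to 100 kb of each neighbouring run, had a median of 3.29. The S3-led valleys had a median of 2.37 (1.97 to 2.74), and their flanks 2.69. The dip, the mean index of the 2 flanks minus that of the valley, had a median of 0.309 in Wt and was above 0 at 77 of the 79 valleys. Its median was 0.245 for S2-led and 0.329 for S3-led valleys.

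The clone had dips at the same places. Its median dip was 0.274 (-0.433 to 0.718), with 0.221 over S2-led and 0.281 over S3-led valleys. With only 1 flank window on each side the median dips were smaller, at 0.184 in Wt and 0.168 in the clone. The clone's index lay below that of the flanks at 73 of the 79 valleys (92.4%), against 52.2% of the 778 runs of any kind that have a run on both sides. By kind, this held for 35 of the 36 S2-led and 38 of the 43 S3-led valleys. Across the 79 valleys Pearson's r between the dips of the lines was 0.847 (Spearman's rho 0.900), and r between the mean indices was 0.963. The valleys share the 8 libraries. The index of all 9787 windows, which span a wider range than the valley means, had an r of 0.967. A high r of the index was thus not particular to the valleys. For the dips no r over all runs is given. The dip was the smaller in the clone at 55 of the 79 valleys, which were chosen in Wt.

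**Figure D3:**
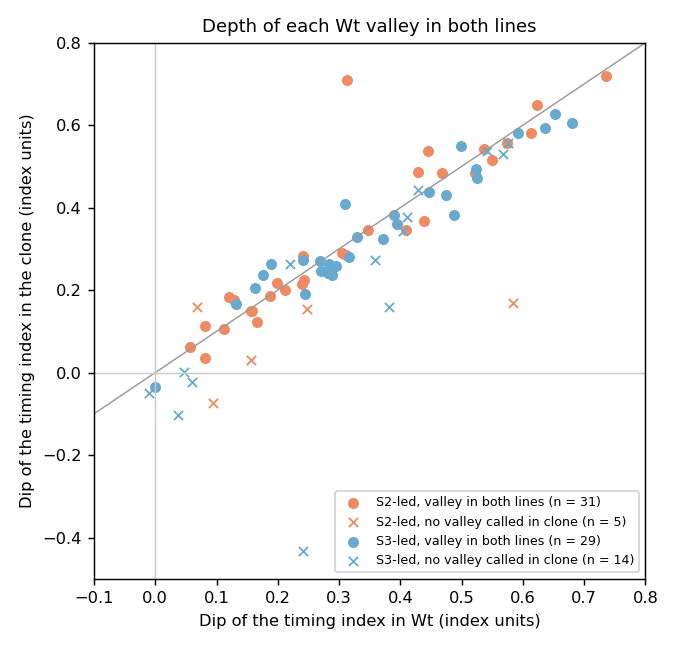
Dip of the timing index at each of the 79 valleys in the clone against the dip in Wt, both in index units, coloured by leading fraction. The points have an r of 0.847, and 73 of them lie above 0 in the clone.

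Valleys of 200 kb or more were deeper than shorter ones. Between length and Wt dip, Pearson's r was 0.575 and Spearman's rho 0.713 over the 79 valleys, which share their 4 libraries. The 11 valleys of 40 kb or less had a median dip of 0.129 in Wt and 0.0300 in the clone. The 29 valleys of 60 to 180 kb had medians of 0.198 and 0.201, the 27 of 200 to 380 kb 0.499 and 0.488, and the 12 of 400 kb or more 0.425 and 0.372. The clone's dip was above 0 at 6 of the 11 shortest valleys, at 28 of the 29 of intermediate length and at all 39 of 200 kb or more. The 6 valleys without a dip in the clone were all 20 to 60 kb long.

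Within the 39 valleys of 200 kb or more, the latest window of the valley, its bottom, lay near the middle. Its distance from the centre had a median of 40 kb, or 0.211 of the distance from centre to edge, and reached 380 kb. The bottom had a median index of 2.24 in Wt and 2.20 in the clone. The mean index of the edge windows minus that of the bottom had a median of 0.438 in Wt and 0.469 in the clone. The bottom was taken as the lowest window in each line, so this difference could not be negative. Of the 63 valleys of 100 kb or more, the bottom lay within 20 kb in both lines at 42 and within 100 kb at 62. The clone's bottom was searched only inside the Wt valley. In the shortest of the 63 a distance above 100 kb was therefore not possible, and these counts are no measure of agreement by themselves. In the 39 valleys of at least 10 windows, the course of the index along the valley had a median r of 0.927 between Wt and the clone.

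The 8 longest valleys differed in depth and in how they fared in the clone. The valley at chr1:71840001-72780000, at 940 kb the longest, overlaps the targeted region and is described further on. The S3-led valley at chr1:132740001-133560000 (820 kb) had 7.58%, 24.8%, 44.1% and 23.5% of its signal in S1 to S4 in Wt, and 6.31%, 22.2%, 44.7% and 26.8% in the clone. The dip measured 0.576 and 0.557 in the 2 lines, and 6 of its windows passed from S3 to S4, which placed a later run inside it. The S3-led valley at chr1:193240001-194000000 (760 kb) had 11.8%, 24.8%, 41.8% and 21.6% from S1 to S4 in Wt and 11.5%, 25%, 40.3% and 23.2% in the clone. The dip measured 0.447 and 0.439, and 35 of its 38 windows kept their leading fraction.

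The 540 kb valley at chr1:78260001-78800000 had the lowest mean index of all valleys in Wt, 1.97, and the second lowest in the clone, 1.94, after 1.92 at chr1:48260001-48720000. S3 held 46.6% of its signal in Wt and 44.9% in the clone, S4 held 30.4% and 33.3%, and 5 of its windows were led by S4 in the clone. The S3-led valley at chr1:109000001-109480000 (480 kb) was shallower, with dips of 0.282 and 0.241, and 7 of its 24 windows were led by S2 in the clone. The 3 S2-led valleys among the longest lay at chr1:14220001-14760000 (540 kb), chr1:105500001-105980000 (480 kb) and chr1:44400001-44860000 (460 kb). Their dips in Wt were 0.439, 0.623 and 0.468, and those in the clone 0.368, 0.648 and 0.484. In the first of these, 4 windows turned to S1 in the clone, while the other two each had 3 windows led by S3 in the clone, inside a valley that was still led by S2 on either side.

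The deepest valley in Wt lay near the left end of the chromosome, at chr1:160001-420000, where the index dipped by 0.735 in Wt and 0.718 in the clone. It was S2-led, with 17.0%, 53.2%, 24.8% and 5.03% from S1 to S4 in Wt and 22.9%, 42.3%, 29.1% and 5.72% in the clone. The index hid this change of shares, since S1 and S3 both took up what S2 lost, and its value was 2.82 in both lines. The next 3 were S3-led, at chr1:66680001-66940000 with dips of 0.680 and 0.606, at chr1:35880001-36260000 with 0.652 and 0.627, and at chr1:76260001-76640000 with 0.635 and 0.594. All 13 windows of the first and all 19 of the third were led by S3 in both lines, and 18 of the 19 of the second. The S2-led valley at chr1:123000001-123200000 dipped by 0.614 and 0.581, and the S3-led one at chr1:154620001-154840000 by 0.592 and 0.582.

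One of the 8 deepest valleys did not hold its depth in the clone. The valley at chr1:195260001-195380000, near the right end of the chromosome, dipped by 0.583 in Wt and 0.170 in the clone. From S1 to S4 it had 23.9%, 47.1%, 1.30% and 27.7% of its signal in Wt, with more in S4 than in S3, and 17.8%, 65.5%, 6.75% and 9.96% in the clone. All 6 of its windows were led by S2 in both lines, and its index rose from 2.67 to 2.91 as the S4 share fell. The flanks changed as well, in runs of 40 and 80 kb with S4-led runs beyond them. The left flank had an index of 3.47 in Wt and 2.45 in the clone, and the right flank 3.05 and 3.71. The mean of the 2 flanks differed by -0.175, clone minus Wt. The other 7 of the 8 deepest had dips in the clone between 0.581 and 0.718.

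The leading fraction in the clone was compared window by window. It was the same as in Wt in 826 of the 931 valley windows (88.7%), as it was in 88.7% of all 9787 windows. Most windows of the chromosome are led by S1 or S4, the ends of the scale, and of the 3477 windows led by S2 or S3 in Wt 83.3% had the same leader. Among the 2546 windows led by S2 or S3 outside valleys the share was 81.3%. For S2 it was 89.0% in valleys, 81.0% in transitions and 68.7% in local peaks, and for S3 it was 88.6%, 85.7% and 74.4%.

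Where the leader of a valley window differed, it was more often an earlier fraction. In the clone 74 windows (7.95%) had an earlier leader and 31 (3.33%) a later one, against 4.27% earlier and 7.07% later over all windows. Windows led by S1 cannot turn earlier and those led by S4 cannot turn later. Among the 2546 windows led by S2 or S3 outside valleys, 5.54% had an earlier and 13.2% a later leader. Both neighbouring runs of a valley are earlier by definition, so an edge that moves inward gives an earlier leader. Without the longest valley, which overlaps the targeted region, the counts were 61 (6.90%) and 31 (3.51%) of 884 windows. The choice of the line bears on this direction. When valleys were called in the clone and read in Wt, 141 of the 783 windows (18.0%) had an earlier leader in Wt and 15 (1.92%) a later one, so windows chosen as a valley in one line had more earlier leaders in the other, whichever line was used.

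The position in the valley and the lead in Wt went with the share that kept its leader. Windows at the edge of a valley had the same leader in 117 of 152 cases (77.0%), those 1 or 2 windows further in in 241 of 255 (94.5%), and those at least 3 windows in in 468 of 524 (89.3%). Of the 56 changed windows in this innermost class, 31 had a later leader in the clone, and 9 lay in the longest valley. Where S2 or S3 led by under 5 percentage points in Wt, 125 of 177 windows (70.6%) had the same leader. With a lead of 5 to 15 points it was 378 of 426 (88.7%), and with 15 points or more 323 of 328 (98.5%).

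The same rule applied to the clone alone gave 88 valleys, 35 led by S2 and 53 by S3, with 783 windows. Of the 79 Wt valleys, 60 (75.9%) overlapped one of them, and of the 88 clone valleys 65 (73.9%) overlapped a Wt valley. The windows in both sets numbered 586, which is 62.9% of the Wt set and 74.8% of the clone's, against 8% of all windows that lay in a clone valley. Among the 60, 55 overlapped a clone valley with the same leader. The other 5 were S2-led valleys in which the clone had an S3-led valley inside. By kind, 31 of 36 S2-led and 29 of 43 S3-led valleys overlapped a clone valley. By length the count was 5 of 11 at 40 kb or less, 24 of 29 from 60 to 180 kb and 31 of 39 at 200 kb or more.

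The 19 valleys that overlapped none had lost their definition in different ways. In 10 of them a neighbouring run had changed its leader, in 4 S4-led windows had appeared inside, and 5 had been filled, so that none of their windows was led by the same fraction. The 5 filled valleys were all 20 to 80 kb long. Conversely, 23 clone valleys overlapped no Wt valley, and the index in Wt lay below that of the flanks at 16 of these 23 places. The share over all runs called from the clone and read in Wt is not given here, so this count has no base beside it.

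The mean index of a valley differed between the clone and Wt by a median of -0.00709 with a range from -0.427 to 0.360. It was higher in the clone at 35 of the 79 valleys (44.3%), against 45% of all 784 runs. The SD of the difference over windows was 0.106 in valleys, 0.112 in transitions, 0.152 in local peaks and 0.179 over all windows.

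The largest changes of the mean index were in short valleys. The largest rise was in the single window at chr1:115580001-115600000, from 2.58 to 2.94. S3 fell there from 39.2% of the signal to 7.37% and S1 rose from 23.6% to 39.0%. This window had a summed signal at the 4.85th percentile of all windows, the lowest of any valley, and it is 1 of 2 valley windows without a value in the authors' weighted average. Smaller rises were found in the 120 kb valley near the right end described above, in the 40 kb valley at chr1:156220001-156260000 (2.48 to 2.68), and in the single windows at chr1:84040001-84060000 (3.18 to 3.33) and chr1:22360001-22380000 (2.74 to 2.87). In these last 3, no window kept its leader in the clone.

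Towards later replication, the largest difference was at chr1:185080001-185120000, a 40 kb valley with an index of 2.70 in Wt against 2.27 in the clone. The dip of this valley was -0.0106 in Wt, so by the index it was not later than its flanks there. Its shares from S1 to S4 were 25.3%, 30.9%, 32.2% and 11.6% in Wt and 11.1%, 27.0%, 39.9% and 22.1% in the clone. The 400 kb valley next to it, at chr1:185200001-185600000, was also later, at 2.38 and 2.21, with all 20 windows led by S3 in both lines. These neighbours are the only 2 of the 10 valleys with the largest changes that lie within 200 kb of each other. At chr1:194280001-194300000 the S1 share fell from 37.6% to 5.18% and the S2 share rose from 39.5% to 62.7%, with an index of 3.08 in Wt and 2.73 in the clone. This valley is a single window, and its summed scaled signal was also lower in the clone, at 2.99 against 5.77 in Wt. The valleys at chr1:48160001-48180000 (2.45 and 2.23) and chr1:137540001-137700000 (2.45 and 2.27) completed the 5. In the last of these S4 rose from 11.8% to 20.9% while S3 stayed close, at 42.0% and 40.6%. The flanks were later in the clone as well, except at chr1:194280001-194300000, where their mean index differed by 0.0438, clone minus Wt. That difference was -0.467 at chr1:185080001-185120000 and -0.257 at chr1:185200001-185600000. It was -0.176 at chr1:48160001-48180000 and -0.173 at chr1:137540001-137700000. These 4 are thus later stretches that include their surroundings.

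The longest valley overlaps the target region of the study's design. This region, chr1:71981290-73532377, begins inside the valley and runs past its right end, and the positions 72536060, 72548589 and 72565520, at which the study's Hi-C lines carry modules and a reporter, lie in its right part. Where exactly the Repli-seq clone carries its insertion was not given in the sources used here. Over the whole valley the shares from S1 to S4 were 10.1%, 29.9%, 39.8% and 20.1% in Wt and 10.7%, 32.3%, 39.1% and 17.8% in the clone. The mean index rose from 2.30 to 2.36, which was 10th of the 79 valleys in the order from the largest rise, and the dip was 0.329 and 0.330. Set among all 79 valleys, these averages did not stand apart. That order mixes long valleys with short ones, in which the largest changes lay. Among the 8 longest valleys it was the only one with a higher mean index in the clone. The differences of the others, clone minus Wt, ranged from -0.0845 to -0.00203. In the authors' weighted average the valley had 0.218 in Wt and 0.442 in the clone, with dips of 0.518 and 0.210.

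The inner course of the longest valley did stand apart. The r between the index in Wt and in the clone along its 47 windows was 0.0927, the lowest of the 39 valleys of at least 10 windows, where the next lowest was 0.528. The SD of the window differences was 0.229, the highest of the 39, and the next was 0.128. The bottom lay at chr1:72680001-72700000 in Wt, with an index of 2.00, and at chr1:72300001-72320000 in the clone, with 1.91. Wt also had a low there, of 2.06 at chr1:72320001-72340000, directly next to the clone's bottom. The 380 kb between the bottoms of the lines was the largest distance of the 63 valleys of 100 kb or more. The next largest was 60 kb. These orders were not fixed by the choice of members, which used Wt alone, but the choice bounded the distance between bottoms. Both bottoms were searched inside the Wt valley, so longer valleys could have larger distances. A distance of 380 kb was possible only in the 12 valleys of 400 kb or more, of which this was the longest. The orders carry no test.

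The 2 sides of the valley differed in opposite directions. From 72340001 to the right end of the valley, the index was higher in the clone in all 22 windows, with a mean of 2.23 in Wt and 2.49 in the clone. These windows were delimited after the values had been seen, as the unbroken stretch of higher index around the module positions inside the valley. The stretch did not end at the valley's edge, since the next 21 windows, to 73200000, were also higher in the clone, with means of 3.18 and 3.31. In the 22 windows inside the valley S2 rose from 28.0% to 37.5% of the signal and S1 from 8.94% to 12.5%, while S4 fell from 23.2% to 13.4% and S3 from 39.8% to 36.6%. In the 25 windows to the left, the mean index fell from 2.36 in Wt to 2.24 in the clone and was the lower there in 23 of them. S4 was higher there in the clone, at 21.8% against 17.5%, and S2 lower, at 27.8% against 31.5%.

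The largest rise was in the window that holds the reporter position, between those of the 2 modules, chr1:72540001-72560000, from 2.24 to 2.77. The gain of 0.533 was also the largest in any window of the 79 valleys, and the largest in any other valley was 0.484. In Wt the shares of this window from S1 to S4 were 8.65%, 29.0%, 39.6% and 22.8%. In the clone they were 19.2%, 45.8%, 27.7% and 7.28%. In all, 13 windows of the valley had S2 as leader in the clone, the highest number in any valley, and 34 stayed with S3. As 27.7% of its windows this share was 12th among the valleys.

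In the clone the longest valley was split. From left to right the clone had an S3-led run at chr1:71900001-72440000 (540 kb), S2-led windows at 72440001 to 72480000, an S3-led run at chr1:72480001-72520000, an S2-led run at chr1:72520001-72660000 (140 kb), and an S3-led run at chr1:72660001-72760000. The S2-led run of 140 kb spans all 3 positions of the modules and the reporter. A 940 kb valley in Wt was thus 3 shorter valleys in the clone, the leftmost of which held the clone's bottom. Of the 60 Wt valleys that overlapped a clone valley, 6 overlapped 2 or more.

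**Figure D4:**
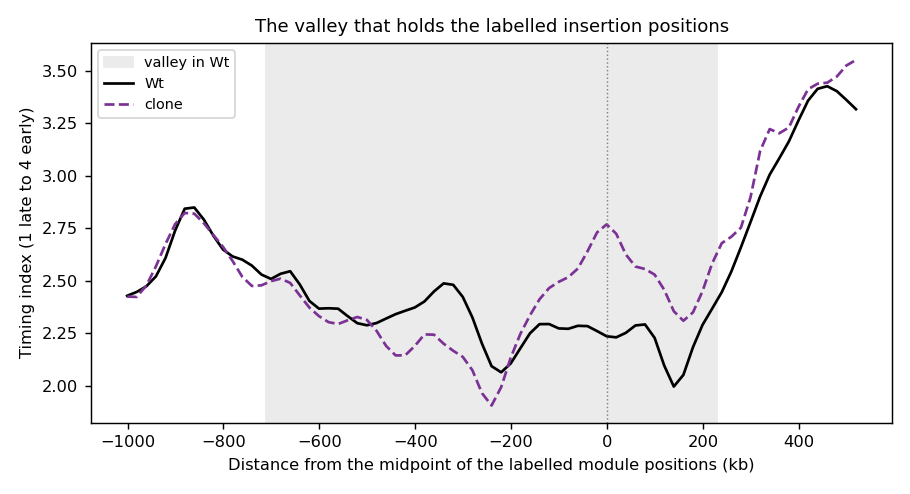
Timing index in Wt and the clone in 20 kb windows across the longest valley, against the distance in kb from the centre of the module positions. The clone is above Wt around the module positions of the Hi-C lines, at 2.77 against 2.24 in the window with the largest rise. It is below Wt in most windows on the left.

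Total signal in the valleys was mostly above the chromosome's median. The summed scaled signal of the 4 fractions lay at a median percentile of 69.1 of all windows over the 79 valleys. In the lowest 10% were 1 of the 931 valley windows and 6 of the 2546 windows led by S2 or S3 outside valleys. Low signal was thus rare in windows led by S2 or S3 in general. In the authors' deposited weighted average, another measure of timing, fewer valleys dipped. In it, 48 of 77 valleys lay below their flanks in Wt and 55 of 77 in the clone, with median dips of 0.0788 and 0.132 on its own scale. By kind these were 19 of 36 S2-led and 29 of 41 S3-led valleys in Wt, and 25 of 36 and 30 of 41 in the clone. Of the longest and deepest valleys named above, those at chr1:14220001-14760000, chr1:123000001-123200000 and chr1:195260001-195380000 did not dip in it in either line. Their values were -0.468, -0.000763 and -0.798 in Wt and -0.245, -0.0756 and -0.430 in the clone. At chr1:44400001-44860000 the values were 0.000467 and 0.0439, and the others of these dipped in both lines. Leaving out the 3 valleys near places without that average, 60 of 76 overlapped a clone valley and 71 of 76 dipped in the clone.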

How the data were processed

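Repli-seq of DT40 cells was analysed for 8 of the 13 samples, the 4 S-phase fractions of Wt and of the clone; the other 5, 1 asynchronous library of Wt and 4 of Hi-C, were not analysed here. Reads were aligned with Bowtie2 to galGal5, per the submitters' processing notes; its version, any filter, and how the profiles were normalized and smoothed were not given in the sources used here. Deposited values are scores in SD units every 1 kb at 196153 positions of chromosome 1, normalized and centred by the authors, per the file headers. The authors' weighted averages are also deposited scores (193978 positions in 16 stretches). The clone was taken to be the line that their headers call cl6. Depth is unknown, and the number of libraries limits the precision.

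From each fraction its percentile 1 was subtracted, negative values were set to 0, and the result was divided by its mean. Windows of 20 kb needed at least 10 values, and 21 windows with 0 in all fractions in Wt had no leading fraction. The index weights S1 to S4 by 4, 3, 2 and 1. Flanks were up to 5 windows of each neighbouring run. Python 3.11.15 and numpy 2.4.6 were used, and the calling of valleys was tested on simulated data.

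Members and lists were chosen with earlier results of these data known. Valleys named are the 8 longest, the 8 with the largest Wt dip, the 5 with the largest change of the index each way, any that overlaps the target region, and the windows nearest to the threshold. Genes and sequences are not given, since no galGal5 annotation or genome was used here. Alternatives were other window sizes, phases and averages, other baselines and scalings, filters on low signal, incomplete windows and short valleys, bridged gaps, narrower flanks, the index without S4, the authors' weighted average, and valleys called from the clone.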

Additional observations from a re-analysis of the deposited data

How the results depend on the processing

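No paired analysis was possible because each fraction of each line is 1 library and nothing was tested. Under 17 alternative settings, 2 of them chosen after seeing the data, 111 of 118 alternative values of 8 results stayed within set limits. The limits were 1 SD over valleys for a dip, the 95% binomial interval of a percentage, or 1.5 times a count or length. The other 7 moved further and 0 reversed. A reversal could be scored only for the median dips. The settings with 15 or more values in a window and with bridged gaps left every value unchanged, so their part of the 111 is no check. The SD over valleys is wide: with 1 flank window on each side the median dips were each over 1.5 times below the value reported. They were 0.184 in Wt and 0.168 in the clone. In the authors' weighted average the median dip of the clone was 0.132. That average is in SD units, so the size of its dips cannot be set against those of the index, nor against their limits. The number of valley windows was 1839 with 10 kb windows and 364 with 50 kb windows, as the window size sets it. The share of valleys with an index below the flanks in the clone was 97.2% with 50 kb windows, 98.5% without valleys of 40 kb or less in Wt, and 71.4% in the authors' weighted average, in which the median dip in Wt was 0.0788. The share of windows with the same leader was 80.1% for valleys called from the clone and read in Wt. For the values other than the window counts the cause was not tested. Unequal whole-genome amplification was not tested either, and without counts no depth limit can be given.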

Other observations

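Wt profiles were also given for chromosome 14, which the clone's profiles do not cover. By the same rule it had 7 valleys with 102 of 750 windows (13.6%), a median length of 220 kb and a median dip of 0.490, over the 15000 positions before the first score beyond 2 SD. Over all 15546 positions, which include extreme values at the end of the chromosome, it had 5 valleys with 91 of 778 windows and a median dip of 0.00699.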
